A study of Rattus norvegicus with 3 samples.

Results

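Hsd11b2, Hsd11b1, Nr3c2 and Nr3c1 encode the enzymes that switch glucocorticoid hormone off or on inside cells, and the receptors that read corticosteroids. They were taken as all probes with 1 of these 4 symbols as their sole gene symbol in the probe annotation, which gave 4 probes, 1 per gene, of 5760 probes on the array and 4390 named genes. All 4 had a value on all 3 arrays, so none was lost to missing spots. The genes were picked with their ratios on these same arrays known, so their own ratios are given as a description and without a test.

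The arrays compared kidney inner medulla RNA of rats given lithium for 1 month, a treatment that causes nephrogenic diabetes insipidus, with inner medulla RNA of control rats. Arrays 1 and 2 each set 2 lithium-treated rats, labelled red, against 2 control rats, labelled green, and array 3 set 1 rat of each kind against the other. The labels gave no strain, age, sex, lithium dose or route, and they did not say what the control rats received. The submitters deposited 1 log ratio per probe and array, without its log base or direction. It was read as lithium over control because the labels put lithium RNA in channel 1. That reading is an assumption and is in doubt: lithium is known to lower Aqp2, the vasopressin-regulated water channel, in the collecting duct, and Aqp2 read above 0 on all 3 arrays. If the direction were turned round, each sign below, each rank and each "higher" or "lower" would turn with it, so that Hsd11b2 would be lower and Hsd11b1 higher in lithium-treated medulla. The sizes, the SDs and the opposite signs of the enzymes would stay. Each array's median over all probes was subtracted, so 0 is the middle of that array, and a fold is given for base 10 and for base 2. Lithium RNA was red on every array, so a dye effect of a probe cannot be told apart from lithium. The arrays correlated across 3819 features (genes, or probes without a name) at r = 0.46, 0.48 and 0.16 for arrays 1 and 2, 1 and 3, and 2 and 3, which share no rats by the labels.

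In the collecting duct, aldosterone enters principal cells and binds the mineralocorticoid receptor, which raises sodium reabsorption through the epithelial sodium channel. Glucocorticoids bind that receptor too and circulate at much higher levels, and the type 2 enzyme Hsd11b2 keeps them away from it by oxidising corticosterone, the main glucocorticoid of the rat, to inactive 11-dehydrocorticosterone. The type 1 enzyme Hsd11b1 runs mostly in the other direction in intact cells and regenerates active hormone, with NADPH that H6pd supplies in the endoplasmic reticulum. Nr3c2 encodes the mineralocorticoid receptor and Nr3c1 the glucocorticoid receptor, ligand-activated transcription factors of one nuclear receptor subfamily.

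The inactivating enzyme Hsd11b2 had a much higher ratio than the other 3 genes on every array. Its probe, 8.2.10.8, was deposited at 0.50, 0.53 and 0.37 on arrays 1, 2 and 3, and read 0.52, 0.57 and 0.37 after centring. The pools of arrays 1 and 2 lay close together and the single pair of rats on array 3 was lower, but all 3 arrays were far above 0. The mean was 0.49 ± 0.10 (SD, n = 3 arrays). In base 10 the single arrays correspond to lithium-over-control folds of 3.31, 3.72 and 2.34, and in base 2 to folds of 1.43, 1.48 and 1.29. With the direction turned, the base 10 folds would be 0.302, 0.269 and 0.427.

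Against the other transcripts on the same array, Hsd11b2 was number 3 from the top of 3819 features on array 1, number 2 on array 2 and number 6 on array 3, and number 2 by mean, or as far from the bottom if the direction were turned. It stood 5.24, 4.21 and 3.25 array SDs above 0 (SD over all 3819 features of that array). Its SD between arrays was larger than that of 75.1% of features, so it combined a large ratio with an ordinary to wide spread. Hsd11b2 was 1 of 17 features (0.445% of 3819) past a limma adjusted p of 0.05, and the other 3 genes were not among them. Because the ratio itself led to the choice of the gene, nothing is read from that count. With any 1 array left out, limma called 0 of the 3819 features at that threshold, while Hsd11b2 stayed at number 1, 2 or 3 by mean.

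Hsd11b1, the enzyme that regenerates active glucocorticoid, lay below 0 by nearly the same amount on every array. Its probe, 8.1.7.11, was deposited at −0.18, −0.17 and −0.15 and read −0.16, −0.13 and −0.15 after centring, a mean of −0.15 ± 0.02 (SD, n = 3). The mean corresponds to 0.713 times the control level in base 10, or 0.903 times in base 2. The 3 values hardly differed, and only 2.59% of features had a smaller SD. The size was moderate: Hsd11b1 was the 171st lowest of 3819 features by mean, and 4.53%, 11.7% and 8.09% of features read lower on arrays 1, 2 and 3. With the direction turned, it would be the 171st highest, with those shares of features above it. On array 2, which had 2.83% of features below −0.3 against 0.288% above 0.3, it was less than 1 array SD below 0, at −0.96. Its print block (the patch of spots that held the probe) had a median of −0.06, 0.05 and −0.06 on the 3 arrays, and with each block centred on its own median, a setting added after seeing the data, Hsd11b1 averaged −0.12.

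**Figure D1:**
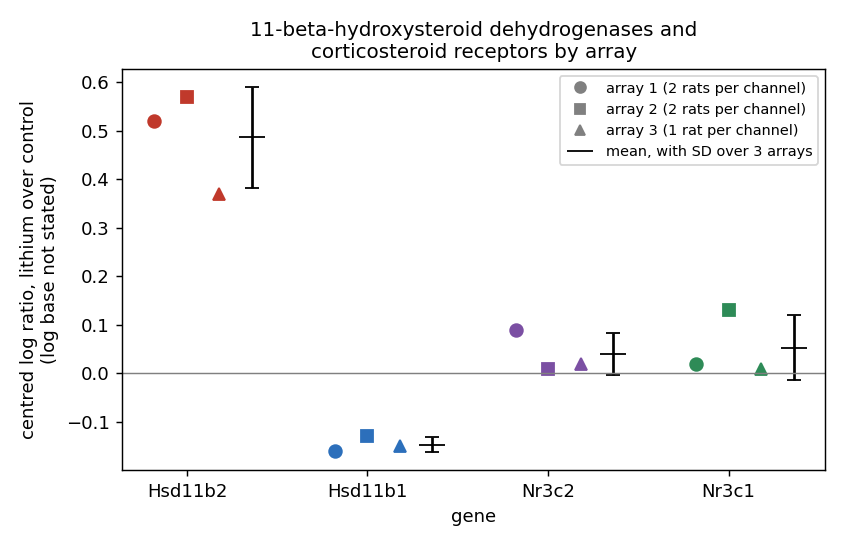
Centred log ratios (lithium over control, log base not stated) of the 4 genes on the 3 arrays, with the mean and SD of the 3 arrays beside them. Hsd11b2 lies between 0.37 and 0.57, Hsd11b1 between −0.16 and −0.13, and both receptor genes between 0.01 and 0.13.

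The enzymes therefore had opposite signs on each array, and the distance between them does not depend on how an array is centred as a whole. Hsd11b2 minus Hsd11b1 was 0.68, 0.70 and 0.52 on arrays 1, 2 and 3, a mean of 0.63 ± 0.10 (SD, n = 3). In base 10 this is a 4.30-fold larger lithium-over-control ratio for Hsd11b2 than for Hsd11b1, and in base 2 a 1.55-fold larger one. It compares changes of 2 transcripts and not their levels, since no spot intensities were used here. The gap was widest on the pooled arrays and smallest on array 3, and the lower Hsd11b2 ratio there made most of that difference, because Hsd11b1 moved by 0.03 at most between arrays.

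The receptor genes had mean ratios near 0, although each stood higher on 1 array. Nr3c2, the mineralocorticoid receptor (probe 4.2.8.15), read 0.09, 0.01 and 0.02 after centring, a mean of 0.04 ± 0.04 (SD, n = 3). Nr3c1, the glucocorticoid receptor (probe 8.3.8.4), read 0.02, 0.13 and 0.01, a mean of 0.05 ± 0.07. Nr3c2 read above 82.7% of features on array 1, at 0.91 array SDs, and Nr3c1 above 81.5% on array 2, at 0.96 array SDs, which is as far from 0 as Hsd11b1 on array 2. For both genes the SD was about as large as the mean. Without array 1 Nr3c2 averaged 0.015, and without array 2 Nr3c1 averaged 0.015. In base 10 the means are 1.10-fold and 1.13-fold, and in base 2 1.03-fold and 1.04-fold. Of all features, 60.8% were at least as far from 0 as Nr3c2 and 49.6% as far as Nr3c1.

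The signs of the receptor genes depended on the zero point. After centring on all probes, 4 of 4 genes had 1 sign on all 3 arrays, against 38.7% of all features. As deposited, Nr3c2 read −0.03 on array 2 and Nr3c1 read 0.00 on array 1, so only the 2 enzyme genes kept 1 sign, against 37.5% of all features. With the arrays centred on the features measured on all 3 arrays, 3 of 4 kept 1 sign, against 38.1% of all features, and Nr3c2 again read −0.03 on array 2. The enzyme genes had the same sign in all 3 forms. These ratios do not show that the receptor transcripts were equal in lithium-treated and control medulla, since a change of the size of their spread could not be seen with 3 arrays.

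The mean ratios thus ran in the order Hsd11b2, Nr3c1, Nr3c2 and Hsd11b1. The neighbours Nr3c1 and Nr3c2 did not differ beyond their spread, with Nr3c2 minus Nr3c1 at 0.07, −0.12 and 0.01 and a mean of −0.01 ± 0.10 (SD, n = 3). Hsd11b2 minus Nr3c2, the enzyme against the receptor it shields, was 0.43, 0.56 and 0.35, with a mean of 0.45 ± 0.11. Hsd11b1 minus Nr3c1, the regenerating enzyme against the glucocorticoid receptor, was −0.18, −0.26 and −0.16, with a mean of −0.20 ± 0.05. Both enzyme genes therefore stood apart from both receptor genes on each array, in opposite directions.

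**Figure D2:**
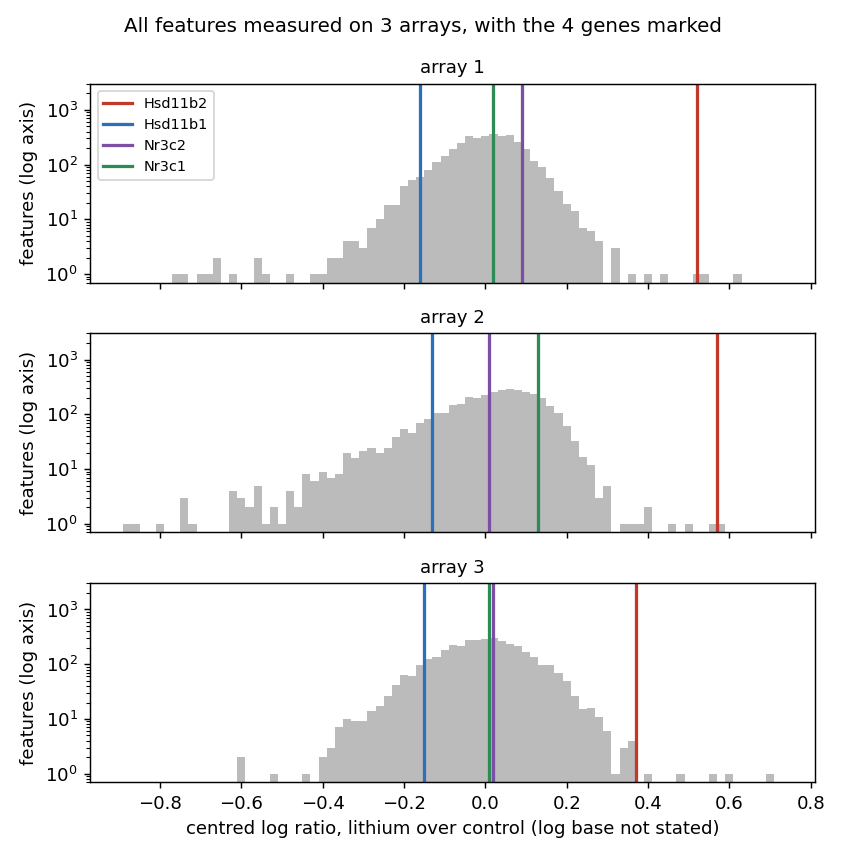
Number of features (log axis) by centred log ratio on each array, for the 3819 features measured on all 3 arrays, with vertical lines at the 4 genes. Hsd11b2 lies in the sparse upper tail on all arrays, Hsd11b1 on the lower shoulder, and Nr3c2 and Nr3c1 in the bulk, where Nr3c1 reads 0.13 on array 2.

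Of the other genes of the corticosteroid pathway, none passed the limma test over all 3819 features (adjusted p of 0.05, background 0.445% of features). Over 5 pathway lists and 8 lists of cell type markers, 112 of 195 genes were measured on all 3 arrays. Past an unadjusted limma p of 0.05 there were 28 of the 112, 18 above and 10 below 0. Among all 3819 features there were 658, 371 above and 287 below. The 28 include cell type markers: 6 of 7 principal cell markers, above 0, and of 4 limb markers 1 above and 3 below. Some of these are also in the aldosterone list. Of all features, 55.7% had a mean above 0, which is the share to set beside each list's count. The lists were drawn up with earlier results of these arrays known.

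Genes of steroid synthesis and metabolism, not all of them enzymes, centred on 0. Of 29 such genes 11 were measured on all arrays, and 5 averaged above 0 and 6 below it. Their median was −0.00333, against 0.0133 for all features. The lowest was Hsd17b7, a dehydrogenase that also acts in cholesterol synthesis, at −0.22, −0.14 and −0.27 (mean −0.21 ± 0.07, limma adjusted p = 0.112). Hsd17b12, an enzyme of fatty acid elongation, averaged −0.07 ± 0.16. Fdx1, the ferredoxin that carries electrons to mitochondrial steroid hydroxylases, averaged 0.05 ± 0.03, and Por, the reductase that supplies microsomal P450 enzymes, −0.04 ± 0.03, all with adjusted p of 0.555 or more. H6pd, which feeds NADPH to Hsd11b1, had no probe named here. On each array Hsd11b2 read higher than all 11 of these genes. Since its ratio led to its choice, that comparison shows nothing further.

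Receptor chaperones and coregulators were split evenly, with 6 of 12 measured genes above and 6 below 0 and a median of −0.00333. Hsp90ab1, a heat shock protein of the complex that holds unliganded corticosteroid receptors, read 0.15, 0.13 and 0.06 (mean 0.11 ± 0.05, limma adjusted p = 0.23). The phosphatase Ppp5c, which joins the same complex, averaged 0.07 ± 0.02 (adjusted p = 0.381). The coactivator gene Ncoa3 averaged −0.18 ± 0.16, with array 2 far below the others at −0.37 (adjusted p = 0.218). The corepressor gene Ncor1 averaged −0.13 ± 0.10 (adjusted p = 0.256).

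Genes of the aldosterone response had a median above that of all features, and none passed on its own. Of 18 measured genes, 13 averaged above and 5 below 0, with a median of 0.05 against 0.0133, and 9 were above 0 on all 3 arrays (24.1% of all features were). The sodium channel subunit gene Scnn1b read 0.28, 0.30 and 0.13, and Scnn1g read 0.20, 0.12 and 0.23, with limma adjusted p of 0.105 and 0.13. Kcnj1, the ROMK potassium channel of thick limb and collecting duct, averaged 0.20 ± 0.12 over 3 probes (adjusted p = 0.15), and 1 of these probes went to −0.10 on array 3 where the others read 0.20 and 0.12. Fxyd4, a regulator of the sodium pump in the collecting duct, averaged 0.14 ± 0.04 (adjusted p = 0.176). Fxyd2, the gamma subunit of the sodium pump, was the 1 list gene below 0 at an unadjusted p of 0.05, at −0.17, −0.05 and −0.30 (adjusted p = 0.183), and was named after its values were seen. Hsd11b2 was higher than all 18 genes on each array, which its place near the top of all features makes likely for any list.

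Sgk1 and Tsc22d3, direct targets of both receptors, were looked up after the values were seen. Sgk1, the kinase that keeps sodium channels at the membrane, averaged 0.04 ± 0.07, and Tsc22d3, the leucine zipper protein GILZ, averaged −0.01 ± 0.11 (SD, n = 3). For both the SD exceeded the mean, so neither stood away from 0 in a way that these 3 arrays can show.

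Genes of the glucocorticoid response lay close to 0. Of 21 measured genes, 12 had a mean above 0, 7 had one below it and 2 were at 0. The list's median was 0.00667. Anxa1, an annexin with anti-inflammatory action, read 0.13, 0.14 and 0.10 (limma adjusted p = 0.185). The transcription factor gene Klf15 averaged 0.12 ± 0.11 (adjusted p = 0.306) and Zfp36, which speeds the decay of cytokine messages, 0.08 ± 0.03 (adjusted p = 0.348). Rhob, a small GTPase gene, averaged −0.11 ± 0.09 (adjusted p = 0.297). The median was 0.0125, 0.05 and −0.04 on arrays 1, 2 and 3, against 0.01, 0.04 and 0.00 for all features.

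Other nuclear receptor genes had a median of 0.04 and a range of −0.13 to 0.18. Of 19 measured, 15 had a mean above 0 and 4 had one below it, against 55.7% of all features above 0. On arrays 1, 2 and 3 their median was 0.02, 0.06 and 0.02, close to that of all features at 0.01, 0.04 and 0.00. Nr2f6, an orphan receptor, stood highest at 0.24, 0.08 and 0.21 (limma adjusted p = 0.15). Nr2f2 and Nr4a2, further orphan receptors, averaged 0.13 ± 0.07 and 0.13 ± 0.09 (adjusted p = 0.215 and 0.246). The clock repressor Nr1d1 stood lowest at −0.13 ± 0.12 (adjusted p = 0.262).

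**Figure D3:**
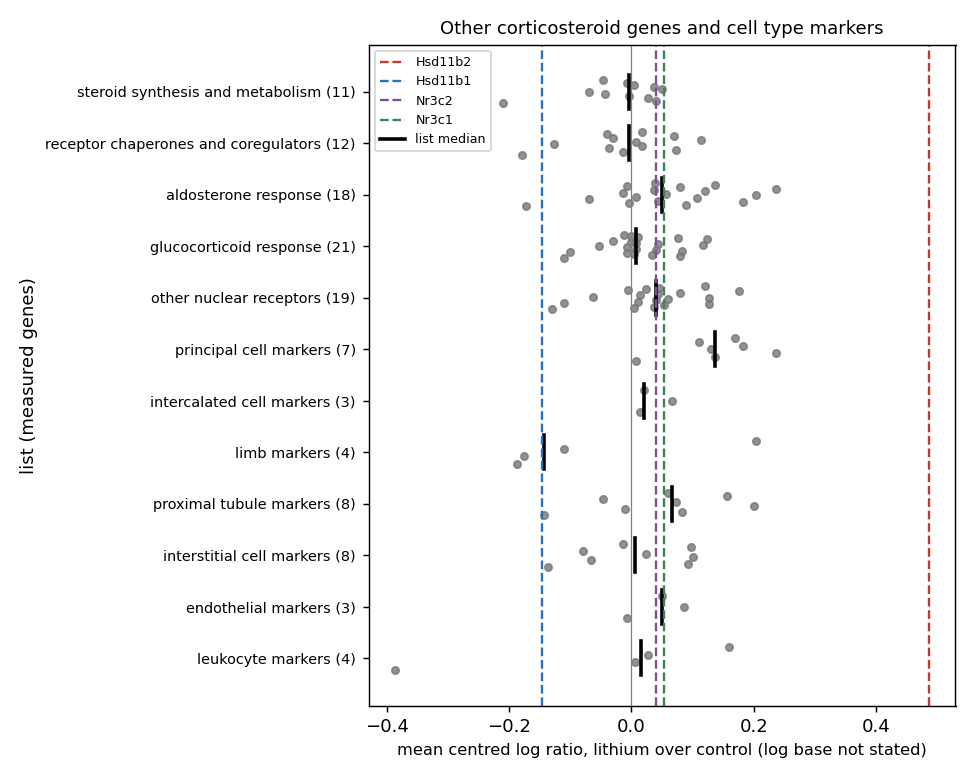
Mean centred log ratio (lithium over control, log base not stated) of each measured gene in 12 lists, with black bars for list medians and dashed lines for the means of the 4 genes. No list gene reaches Hsd11b2 at 0.49, which was picked with its ratio known. The principal cell list has the highest median (0.14), and the limb list has the lowest (−0.14).

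Hsd11b2 is a principal cell gene, and markers of that cell type also averaged above 0, though not all of them on every array. All 7 principal cell markers averaged above 0, between 0.00667 and 0.24, with a median of 0.14, against 55.7% of all features above 0, and none passed. Scnn1b, Scnn1g and Fxyd4 among them are also in the aldosterone list. Aqp2, the vasopressin-regulated water channel, read 0.11, 0.26 and 0.14 (limma adjusted p = 0.153). Of the 7 markers, 6 were above 0 on all 3 arrays (24.1% of all features were). The exception was Aqp3, another water channel gene, at −0.02, 0.06 and −0.02. The list ran from −0.02 to 0.28 on array 1, 0.03 to 0.30 on array 2 and −0.02 to 0.27 on array 3. Hsd11b2 exceeded all 7 markers on each array, but it was picked with its ratio known, so nothing is read from that. In whole-tissue RNA a different number of cells of a type and a different amount of RNA per cell cannot be told apart, and the part of cell makeup in the Hsd11b2 ratio was not tested. Since the files hold ratios only, the level of any marker, and so the purity of the dissected medulla, could not be checked.

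Hsd11b1 has been described in rat kidney in proximal tubule and in interstitial cells of the medulla. Of 8 proximal tubule markers 5 averaged above and 3 below 0, with a median of 0.0667, led by the transporter gene Slc22a6 at 0.20 ± 0.04 and the endocytic receptor gene Lrp2 at 0.16 ± 0.07 (limma adjusted p = 0.105 and 0.172). Slc22a8, an anion transporter gene, averaged −0.14 ± 0.08 (adjusted p = 0.185). Signal over background is not known for these probes, so the ratios do not show that proximal tubule was present in the inner medulla samples. Of 8 interstitial markers 4 averaged above and 4 below 0, with a median of 0.005, among them Vim at 0.10 ± 0.04 and Pdgfra at −0.14 ± 0.19. On each array Hsd11b1 lay below 7 or 8 of the 8 proximal markers and 6, 7 or 8 of the 8 interstitial ones. Its low place among all features makes such counts likely for any list. It was also picked with its ratio known, so nothing is read from them. The list medians on arrays 1, 2 and 3 were 0.0275, 0.155 and 0.0275 for proximal markers and 0.05, 0.02 and −0.015 for interstitial ones, and the part of cell makeup was not tested.

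By median alone, limb markers were the list nearest to Hsd11b1, at −0.14 over genes that ran from −0.19 to 0.20. Hsd11b1 did not keep 1 place among them: it read lower than 3, 4 and 1 of the 4 on arrays 1, 2 and 3. Of 4 measured, 3 averaged below 0, with Aqp1, the water channel of thin descending limbs, at −0.19 ± 0.08 (limma adjusted p = 0.136), Umod at −0.18 ± 0.19 and the surface enzyme gene Bst1 at −0.11 ± 0.05, while Kcnj1 was above 0. The list median was −0.10, −0.055 and −0.21 on arrays 1, 2 and 3. As signal over background is not known, these ratios do not show which limb segments were in the samples. The 3 intercalated cell and 3 endothelial markers had medians of 0.02 and 0.05. Of the 4 leukocyte markers Cd4 averaged 0.16 ± 0.03, whereas Itgam read −0.55, −0.56 and −0.05, and the list median was 0.0158. No urothelial marker of 5 was measured on all arrays.

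By Euclidean distance between the 3 centred ratios, over 3395 named genes, no gene was within 0.05 of Hsd11b2. The nearest was Krt19, a keratin of simple epithelia, at 0.44, 0.59 and 0.30, a distance of 0.11. Ckmt1, the mitochondrial creatine kinase, read 0.41, 0.46 and 0.23 at a distance of 0.21, and like Hsd11b2 and Krt19 it was highest on array 2 and lowest on array 3. Prom1, a glycoprotein of membrane protrusions, followed at 0.23, with 0.37, 0.40 and 0.41 and no lower value on array 3. Ctsd, cathepsin D of lysosomes, and Gls2, a glutaminase, stood at distances of 0.27 and 0.33. Ctsd, at 0.33, 0.40 and 0.29, was also highest on array 2 and lowest on array 3. Choosing genes by their distance to the Hsd11b2 ratios favours a shared order of arrays, so nothing is read from it. Array 2 had the widest spread over all features, with an SD of 0.1355 against 0.0992 on array 1 and 0.1139 on array 3.

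**Figure D4:**
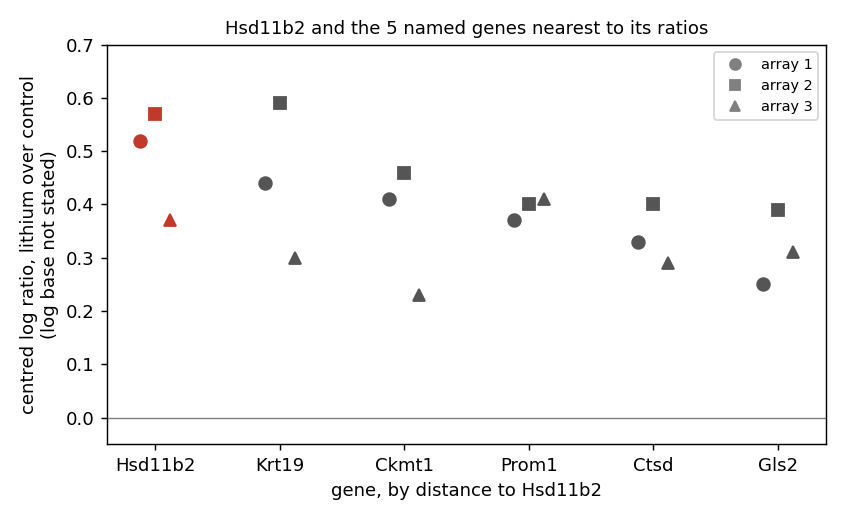
Centred log ratios (lithium over control, log base not stated) of Hsd11b2 and the 5 named genes nearest to it by Euclidean distance over 3 arrays. Hsd11b2, Krt19, Ckmt1 and Ctsd are highest on array 2 and lowest on array 3, whereas Prom1 reads between 0.37 and 0.41 on all arrays.

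The other 3 genes had closer neighbours because they lie where features are dense. Hsd11b1 had 11 named genes within 0.05, the nearest being the adhesion gene Lsamp at −0.17, −0.12 and −0.14, followed by the chemokine-like gene Cklf and the sialyltransferase gene St8sia3. Nr3c2 had 62, led by the chromatin factor gene Ssrp1, the vesicle protein gene Syngr2 and the matrix gene Fbln5. Nr3c1 had 124, and Pls3, which bundles actin, had the same 3 centred ratios to 2 decimals, with the kinase gene Csnk1e and the vesicle GTPase gene Rab3a next. With 3 arrays and ratios rounded to 2 decimals, such likeness near 0 is shared by many genes.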

How the data were processed

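The deposited values are log ratios with 2 decimals for 5760 probes on 3 dual-channel arrays. Their base, scanner, background correction and normalization are not given in the sources used here. Per the labels, lithium RNA was channel 1. The deposited medians were −0.02, −0.04 and 0.00, and scale, direction and any centring by the submitters stay unknown. Probes were named from the platform's public annotation (5064 with 1 symbol, 9 with several, 687 unlisted); 5043 gene IDs were found in RefSeq's GRCr8 table. Each array was centred on its median and probes of 1 gene ID were averaged, which gave 3395 named genes and 424 unnamed probes measured on all 3 arrays.

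These 3819 features were fitted with limma 3.58.1 in R 4.3.3 (intercept only, eBayes, Benjamini-Hochberg, two-sided, threshold 0.05), after a test on simulated data. Members, lists and tests were chosen with earlier results of these arrays known. Besides the members, up to 4 genes per list with the smallest p, and the 5 or 3 nearest genes per member, were named. Sgk1, Tsc22d3, Fxyd2 and Aqp3 were added after the values were seen. Arrays are the replicates, and their number limits the precision. Alternatives concerned centring, scaling, missing values, single probes, array weights, the prior, left-out arrays and the log base; centring by print block and grouping by symbol were added after seeing the data. Figures were drawn with matplotlib 3.10.9 in Python 3.11.15.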

Additional observations from a re-analysis of the deposited data

How the results depend on the processing

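No paired analysis was possible because each array already sets lithium against control RNA and the arrays form 1 group. Hsd11b2 averaged between 0.45 and 0.55 under the 10 alternatives run for it, and the gap between the enzymes between 0.60 and 0.69. Not all of these could move the values. Each member gene had 1 probe, with a value on every array. Single probes, grouping by symbol and features measured on at least 2 arrays therefore returned the same means. No centring, and centring on the features measured on all arrays, could not change the gap. Hsd11b1 averaged −0.17 without centring, −0.16 with centring on the features measured on all arrays and −0.12 with centring by print block, each a shift beyond its small SD. It ranged from −0.16 to −0.14 with 1 array left out. Nr3c2 and Nr3c1 moved by less than their SD under all 10, but by over 1.5 times with 1 array left out: Nr3c2 ranged from 0.015 to 0.055 and Nr3c1 from 0.015 to 0.075. Base 2 in place of base 10 gave folds of 1.40 in place of 3.07 for Hsd11b2 and 0.903 in place of 0.713 for Hsd11b1.

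The count of 17 called features was 98 with arrays scaled to the same spread, 94 with a robust prior, 40 with features measured on at least 2 arrays, 20 with centring by print block, 11 with single probes, 13 with probes grouped by symbol and 1055 with array weights, which gave array 1 a weight of 4.52 against 0.371 and 0.596. Hsd11b2 was among them each time, Hsd11b1 with array weights only. Both were picked with their ratios known, so nothing is read from these calls. Leaving out any 1 array gave 0 calls, with 172 to 606 features at an unadjusted p of 0.05. The count of list genes past the threshold, 0 of 112, was 4 after scaling (Hsd17b7, Itgam, Scnn1b and Slc22a6), 3 with a robust prior and 38 with array weights. Signal over background is not known for any probe.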
